A study of Mus musculus with 18 samples.

Results

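Il10, Lag3, Cd274, Pdcd1lg2, Ctla4, Tgfb1, Havcr1 and Cd200 encode cytokines and surface proteins through which B cells can restrain immune responses, and they are followed here through 6 groups of B cell libraries. These 8 genes, of 23420 measured, were selected by their symbols for these known roles, with earlier results of the same data in view. Lag3 in particular was chosen on its CpG response, known to be smaller in Tlr997 than in Tlr9het cells, so all Lag3 values of that arm are given as a description. B cells were purified from spleens with beads that remove cells carrying CD43, CD4, CD8, CD11b, CD11c or Gr-1, so B cells that carry one of these proteins were depleted too. All mice were MRL/lpr, a lupus-prone strain with the Fas lpr mutation, aged 5 to 7 weeks. In the first arm, female Tlr7-/- mice carried either the combination titled Tlr9het (Tlr9+/- Tlr7-/-, although a protocol note writes Tlr9-/- Tlr7-/-) or Tlr997, a TLR9 whose signaling TIR domain is that of TLR7. Their cells were cultured for 4 h alone or with 10 µg/ml of CpG, a TLR9 agonist. In the second arm, male mice labelled Tlr779 Tlr9-/- carried a TLR7 with the TIR domain of TLR9, and their cells were cultured alone or with CL097, a TLR7 agonist, at 5 µg/ml. Both chimeric receptors were made by CRISPR/Cas9 in the germ line of these mice. Each group held 3 libraries, and 3 mice per genotype were used. The arms differed in sex, genotype and agonist together, so these cannot be told apart and no test was made between the arms.

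IL-10 is a cytokine that dampens antigen presentation and inflammatory cytokine release, and B cells that secrete it are often called regulatory B cells. Such cells can be induced through Toll-like receptors, the B cell receptor or CD40. Other members act by contact. LAG-3 binds MHC class II, PD-L1 (Cd274) and PD-L2 (Pdcd1lg2) engage PD-1 on T cells, CTLA-4 competes with CD28 for CD80 and CD86, and CD200 engages an inhibitory receptor on myeloid cells. TIM-1 (Havcr1) marks B cells able to make IL-10 and binds phosphatidylserine on dying cells, and TGF-β1 (Tgfb1) is a secreted cytokine that is held latent until activated.

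Values are log2 CPM, read counts scaled for library size and normalized by the authors, and the depth of each library is unknown. Libraries of the same group correlated at 0.944 to 0.989 over 11676 genes, the lowest values involving replicate 3 of unstimulated Tlr997. The lowest member value, Ctla4 at -0.17 in a single library, lay above -2.24, the level of 3 counts in a library of average size. Markers of B cells (Cd79a, Cd79b, Ms4a1, Pax5 and Ebf1) summed to 4785 to 6399 CPM without stimulus, 1241 to 2638 with CpG and 1835 to 2567 with CL097, while the 10 T cell markers summed to at most 36.1 CPM in any library. Macrophage markers summed to 141.8 to 452.4 CPM without stimulus and 104.2 to 225.0 with an agonist. Those of conventional dendritic cells summed to 23.2 to 36.7 and 63.4 to 95.7 CPM, and of plasmacytoid dendritic cells to 62.7 to 90.6 and 28.2 to 44.9. The markers of conventional dendritic cells did not all rise. Zbtb46 was called higher with each agonist and Flt3 with CL097. Cd209a, too low to be tested, had means of -1.040, -0.806 and -1.408 log2 CPM without stimulus in Tlr9het, Tlr997 and Tlr779, and -4.518, -4.451 and -2.758 with the agonist. Clec9a, also too low, had a lower mean with the agonist in Tlr9het and Tlr779 and a higher one in Tlr997. Over all libraries, neutrophil markers summed to 16.6 to 120.0 CPM and erythroid markers to 12.2 to 474.4. The part of such cells in the members' values was not tested. Tlr7 transcript, the targeted gene of the first arm, was at 2.68 to 4.28 log2 CPM in Tlr9het, 4.81 to 5.36 in Tlr997 (whose chimeric receptor carries part of Tlr7) and 6.61 to 7.82 in Tlr779 libraries. Tlr9 transcript was at 7.28 to 7.48 log2 CPM in unstimulated Tlr9het and at 7.17 to 7.33 in unstimulated Tlr779 libraries, so its level did not set apart the libraries labelled Tlr9-/-. In unstimulated Tlr997 libraries it was at 7.015 to 7.060, below unstimulated Tlr9het. With CpG it was at 7.181 to 7.555 in Tlr997 and at 7.932 to 8.077 in Tlr9het, again without overlap. The part of this difference in the members' values was not tested. Which part of Tlr9 the deletion removes is not given in the sources used here. In such bulk samples, fewer cells of a type and less RNA per cell cannot be told apart.

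With either agonist, Il10, Lag3, Cd274, Pdcd1lg2, Ctla4 and Cd200 were higher and Tgfb1 was lower than in unstimulated cells of the same genotype. The exception to a common pattern was Havcr1, which was called higher in Tlr997 cells alone among the 3 genotypes. Between genotypes, Lag3 was lower and Havcr1 higher in CpG-treated Tlr997 than in CpG-treated Tlr9het cells. A gene was called at a Benjamini-Hochberg adjusted p under 0.05 in limma, over all genes tested, with an absolute log2 fold change over 0.5. All 8 members passed the filter on low values in both arms. With CpG in Tlr9het, 6 members met the threshold as higher and 1 as lower, where 29.7% of all genes tested were called higher and 28.2% lower. In Tlr997 these counts were 7 and 1, against 29.6% and 26.0%. With CL097 in Tlr779 they were 6 and 1, against 22.7% and 23.6%. The median log2 fold change of the members was 2.23, 1.49 and 1.90 in these comparisons, and that of all genes tested was 0.04, 0.07 and -0.02. Since the members were picked with earlier results known, no more is read from these counts than the values themselves.

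**Figure D1:**
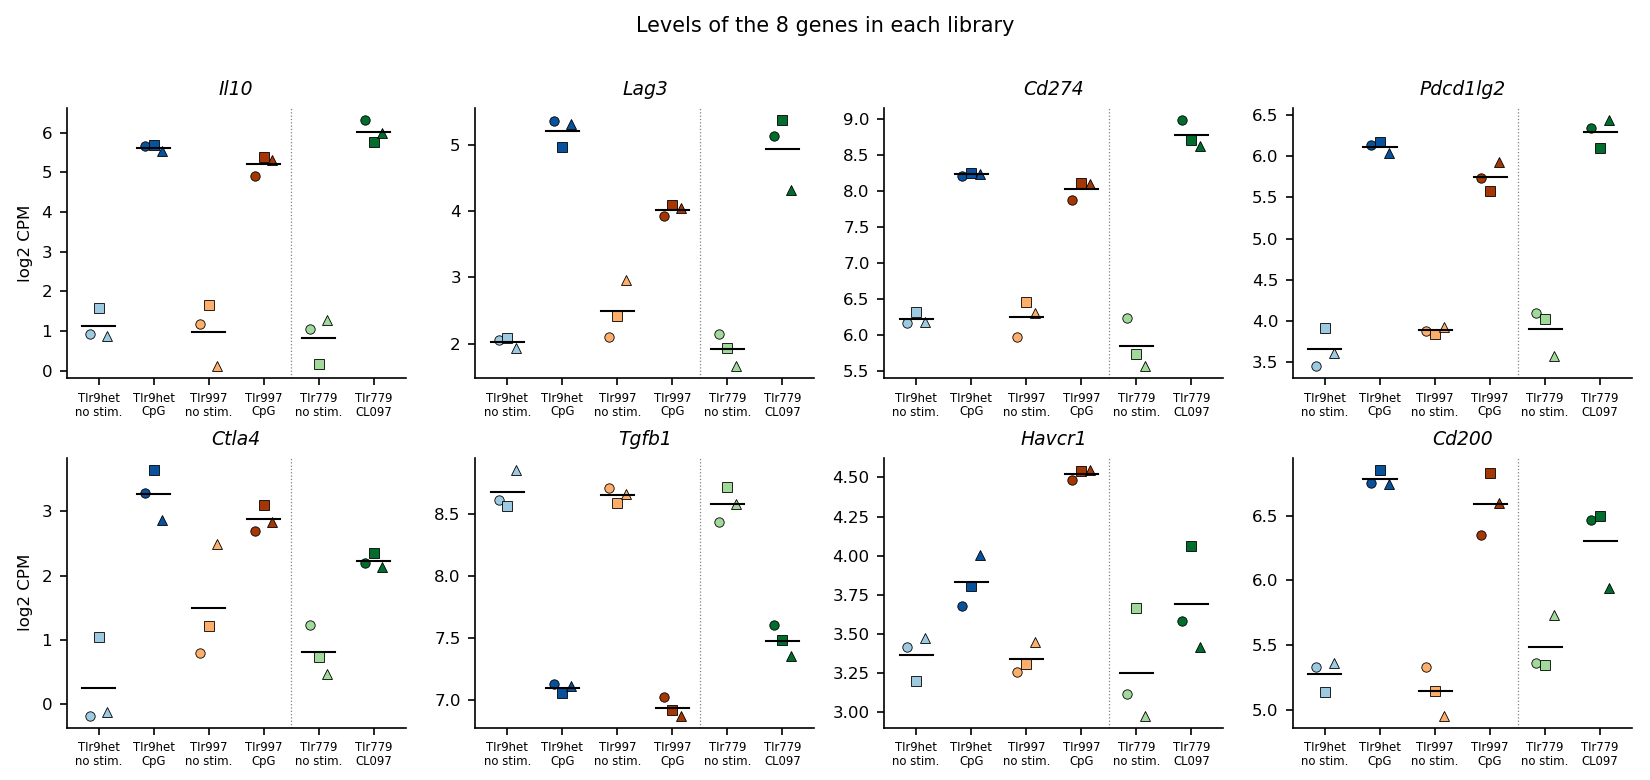
Level of each of the 8 genes in every library, in log2 CPM on the vertical axis, for the 6 groups on the horizontal axis. Symbols mark replicate numbers 1, 2 and 3, bars mark group means, and the dotted line separates the arms. Il10 lies between 0.12 and 1.66 without stimulus and between 4.91 and 6.31 with an agonist, and Tgfb1 is the gene that lies lower with an agonist.

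The Tlr7-/- arm asked whether the TIR domain attached to TLR9 sets the level of these genes. Without stimulus, 0 of 8 members met the threshold between Tlr997 and Tlr9het in limma, beside 0.0174% of all genes tested. Of the 7 members other than Lag3, Ctla4 had an unadjusted p under 0.05. With CpG, of the 7 members other than Lag3, 1 met the threshold as higher in Tlr997 (Havcr1) and 0 as lower, where the background was 1.25% higher and 1.47% lower. For the difference of the CpG responses, Tlr997 minus Tlr9het, 0 of these 7 met it in limma in either direction, where 0.687% of all genes tested were called higher and 0.853% lower, and Havcr1, Pdcd1lg2 and Ctla4 had an unadjusted p under 0.05. Library values of Tlr997 and Tlr9het with CpG also did not overlap for Il10, Cd274, Pdcd1lg2 and Tgfb1. Their differences of -0.42 to -0.16 on the log2 scale were not called. How many of all genes tested lack overlap in this way was not counted, so nothing is read from it. Beside these differences, the B cell markers summed to 1241 to 1292 CPM in CpG-treated Tlr9het and 2181 to 2638 in CpG-treated Tlr997 libraries, with Cd79b, Ebf1 and Ms4a1 called higher in Tlr997, and their part in the members' values was not tested. The comparisons in this arm share libraries and are not independent of each other.

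**Figure D2:**
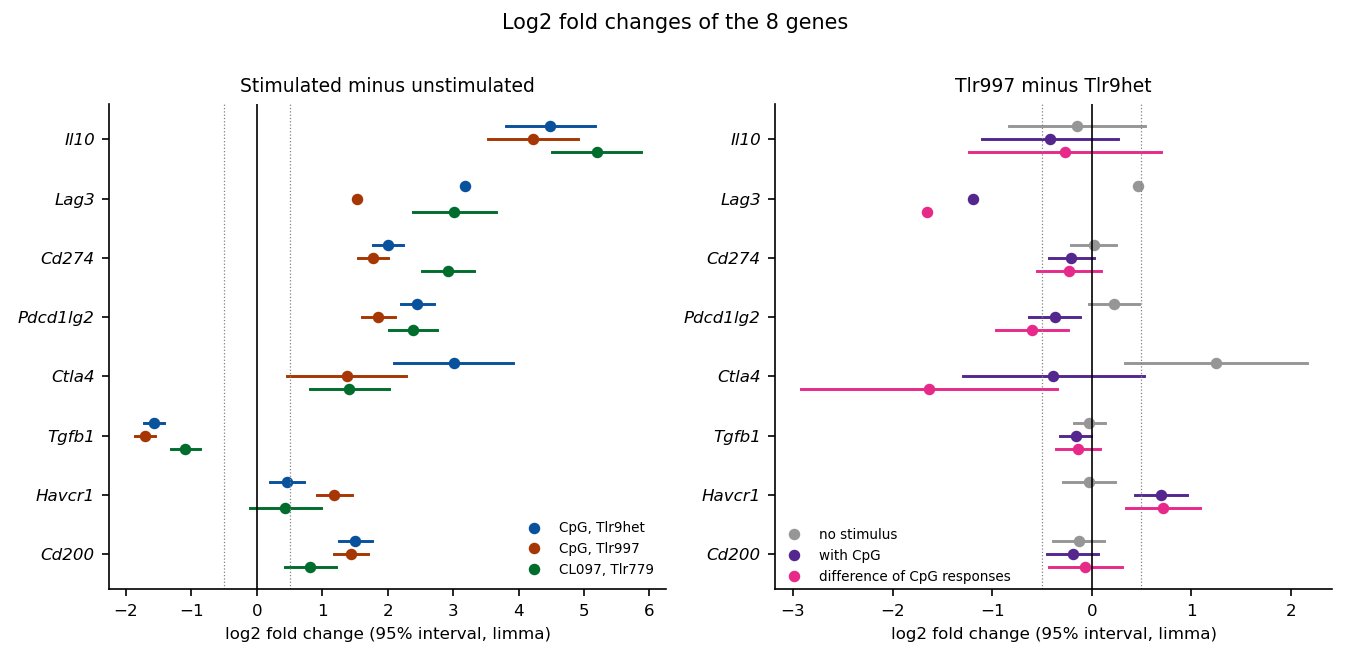
Log2 fold changes of the 8 genes with 95% intervals from limma. The left panel gives stimulated minus unstimulated cells for each genotype, and the right panel gives Tlr997 minus Tlr9het without stimulus, with CpG, and for the difference of the CpG responses. Dotted lines mark a log2 fold change of 0.5 in either direction, and Lag3 in the Tlr7-/- arm is drawn without an interval because it was selected on these values. Its response differs by -1.66 between genotypes, while the interval of Il10 for that difference runs from -1.23 to 0.70.

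Il10 was the member with the largest response to either agonist. In Tlr9het cells it was at 0.93, 1.59 and 0.87 log2 CPM without stimulus and at 5.65, 5.68 and 5.52 with CpG. Tlr997 libraries gave 1.16, 1.66 and 0.12 without stimulus and 4.91, 5.38 and 5.31 with CpG. In Tlr779 cells the values were 1.05, 0.17 and 1.28 without stimulus and 6.31, 5.76 and 6.0 with CL097. The unstimulated groups overlapped one another, and every stimulated library lay above all unstimulated ones. Il10 rose 22.4-fold with CpG in Tlr9het (log2 fold change 4.49 ± 0.32 SE, n = 3 per group, limma adjusted p = 2.2e-08). The rise was 18.7-fold in Tlr997 (4.22 ± 0.32, limma adjusted p = 4.9e-08) and 36.6-fold with CL097 in Tlr779 (5.19 ± 0.29, limma adjusted p = 6.5e-06). Without replicate 3 of unstimulated Tlr997, which had the lowest Il10 value of all, the Tlr997 response was 3.79.

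With CpG, Il10 in Tlr997 was 0.42 lower on the log2 scale (95% interval -1.10 to 0.27, limma adjusted p = 0.55), and the 3 Tlr997 libraries lay below the 3 Tlr9het libraries. The response itself differed by -0.27 (interval -1.23 to 0.70, limma adjusted p = 0.82), and by -0.70 without that replicate 3 (limma adjusted p = 0.21). With 3 libraries per group, these intervals hold both no difference and a response in Tlr997 smaller by more than 1 log2 unit. Of the genes beside Il10 on chromosome 1, Mapkapk2 encodes a kinase downstream of p38 and lies 28.7 kb away. It had log2 fold changes of 0.26, -0.23 and -0.03 and was not called. With CpG it was at 7.756, 7.746 and 7.840 log2 CPM in Tlr9het and at 7.419, 7.352 and 7.213 in Tlr997, without a call between them. The difference of its CpG responses was not called in the main fit. It was called with array quality weights (-0.55, limma adjusted p = 0.0023) and in 3 of 12 fits that left out 1 library. Il19, an IL-10 family cytokine gene 74.4 kb away, was at -0.82 log2 CPM at most and too low to be tested.

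Around Il10, its receptor genes fell while the genes at the end of its signal rose. Of 6 genes of the IL-10 receptor and its signal tested, 2 rose and 3 fell past the threshold in each of the 3 genotypes. Of all genes tested, 29.7%, 29.6% and 22.7% were called higher and 28.2%, 26.0% and 23.6% lower in Tlr9het, Tlr997 and Tlr779. The medians of the list were -0.49, -0.58 and -0.45, and it was not tested against all genes. Socs3, a feedback inhibitor of cytokine signaling that several cytokines and TLR agonists induce, was at 3.31, 3.86 and 3.65 log2 CPM in unstimulated Tlr9het libraries and at 9.09, 9.06 and 9.28 with CpG. It rose 46.4-fold there, 19.3-fold in Tlr997 and 38.7-fold with CL097. Stat3, the transcription factor that carries the IL-10 signal, had log2 fold changes of 1.04, 0.76 and 1.44. Tyk2, a kinase of the receptor complex, fell by 1.70, 1.40 and 1.02 on the log2 scale. Il10ra, the ligand-binding chain, fell by 0.85 in Tlr9het, by 1.65 in Tlr997, and by 0.91 with CL097.

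Of that list, 2 of 6 genes were called between genotypes with CpG, both lower in Tlr997. Among all genes tested, 1.25% were called higher and 1.47% lower there, and the list was not tested against these shares. Socs3 was at 7.39, 7.53 and 8.17 in Tlr997 with CpG, a difference of -1.45 from Tlr9het (limma adjusted p = 0.0024). Il10ra was at 6.93, 6.90 and 6.95 log2 CPM in Tlr9het with CpG and at 6.27, 6.11 and 6.05 in Tlr997, a difference of -0.78 (limma adjusted p = 2.5e-05), with no overlap between the groups. For Il10ra the difference of the responses was called as well (-0.80, limma adjusted p = 9.7e-04). Both genotypes shared a level of 7.71 to 7.86 before stimulation.

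**Figure D3:**
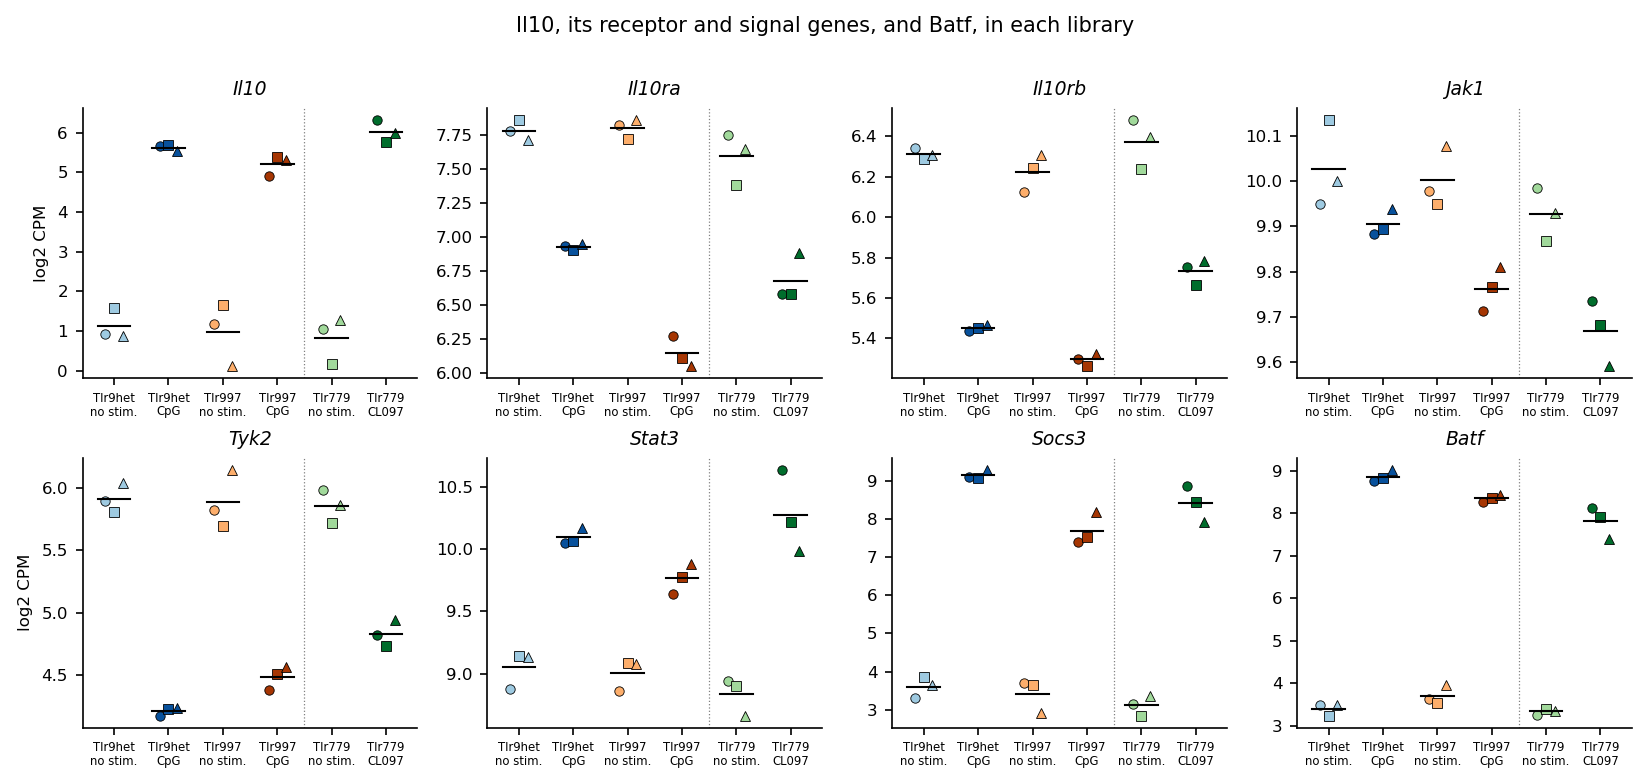
Level of Il10, of the 6 genes of its receptor and signal, and of Batf in every library, in log2 CPM on the vertical axes, which have different ranges and do not start at 0. The horizontal axis gives the 6 groups, symbols mark replicate numbers, and bars mark group means. Il10ra lies at 6.05 to 6.27 in CpG-treated Tlr997 libraries and at 6.90 to 6.95 in CpG-treated Tlr9het libraries.

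Genes known to regulate Il10 transcription or its mRNA moved in both directions. In Tlr9het, 5 of the 18 tested were called higher with CpG and 7 were called lower. The counts were 4 and 5 in Tlr997 and 7 and 6 with CL097, with medians of -0.16, -0.16 and 0.08. Among all genes tested, the shares were 29.7% higher and 28.2% lower in Tlr9het, 29.6% and 26.0% in Tlr997, and 22.7% and 23.6% with CL097. This list was not tested against those shares. Batf, an AP-1 family transcription factor, rose 44.1-fold, 24.9-fold and 22.1-fold. Nfil3, a transcription factor linked to cytokine expression, had log2 fold changes of 2.80, 2.47 and 3.37. Among those that fell were Nfatc2, a calcium-regulated transcription factor, by 2.44, 2.23 and 2.24, and Mapk14, which encodes the kinase p38α, by 2.14, 2.02 and 2.00. The calcium sensor gene Stim1 fell by 2.11, 2.32 and 1.04.

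With CpG, 3 of these 18 regulators were called between genotypes, 1 as higher and 2 as lower in Tlr997. The shares of all genes tested were 1.25% higher and 1.47% lower, and no test was made against them. Batf was at 8.75, 8.82 and 9.02 log2 CPM in Tlr9het and at 8.27, 8.36 and 8.42 in Tlr997 (difference -0.52, limma adjusted p = 0.016). Zfp36, which encodes the mRNA-destabilizing protein tristetraprolin, differed by -0.60 (limma adjusted p = 0.0016), and Mapk3, which encodes the kinase ERK1, by 0.57 (limma adjusted p = 0.02). The calls of Batf and Mapk3 were each lost in 3 of 12 fits that left out 1 library. The difference of the CpG responses was called for Batf (-0.82, limma adjusted p = 0.019) and Zfp36 (-0.55, limma adjusted p = 0.038) as well, and lost in 1 and 9 of those 12 fits.

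Lag3 was the member that separated the genotypes most, which is what it was selected for. It encodes an inhibitory receptor that is best known on activated T cells and also occurs on activated B cells and IL-10-producing plasma cells. Its levels in Tlr9het were 2.05, 2.08 and 1.93 log2 CPM without stimulus and 5.36, 4.96 and 5.31 with CpG. In Tlr997 they were 2.10, 2.41 and 2.96 without stimulus and 3.92, 4.09 and 4.04 with CpG. The CpG groups did not overlap, and the highest Tlr997 library lay below the lowest Tlr9het library. As a description, the level with CpG was 9.11-fold that of unstimulated cells in Tlr9het (log2 difference 3.19) and 2.89-fold in Tlr997 (1.53). Libraries with the same number differed by 3.31, 2.88 and 3.38 in Tlr9het and by 1.83, 1.68 and 1.08 in Tlr997. The smallest of these belongs to replicate 3, whose unstimulated library stood apart, and without it the Tlr997 difference was 1.77 and the difference between the responses -1.42 instead of -1.66.

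In Tlr779 cells, whose values did not enter the choice of Lag3, it was at 2.15, 1.94 and 1.67 log2 CPM without stimulus and at 5.13, 5.37 and 4.32 with CL097. Lag3 rose 8.11-fold (3.02 ± 0.27, limma adjusted p = 4.4e-05). In the order of group means, CL097-treated Tlr779 and CpG-treated Tlr9het stood highest and overlapped, and CpG-treated Tlr997 stood below both without overlap. Unstimulated Tlr997 came next, 0.47 above unstimulated Tlr9het on the log2 scale without overlap, and it overlapped unstimulated Tlr779. That 0.47 is part of the difference of -1.66 between the CpG responses. Unstimulated Tlr779 and Tlr9het overlapped at the bottom.

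T cell and NK cell markers were followed beside Lag3, since both cell types can express it. The 10 T cell markers summed to 5.1 to 14.3 CPM in unstimulated Tlr9het libraries and 16.2 to 36.1 with CpG, and to 3.3 to 13.2 and 15.0 to 29.4 in Tlr997. Of 9 tested, 3 were called higher with CpG in Tlr9het and 4 in Tlr997. Of 5 NK cell markers tested, 2 were called higher with CpG in Tlr9het, and 3 higher and 1 lower in Tlr997. Among all genes tested, 29.7% were called higher in Tlr9het and 29.6% in Tlr997. The part of T and NK cells in the Lag3 levels was not tested. Between CpG-treated genotypes, 0 of 9 T cell markers and 0 of 5 NK cell markers were called by limma, with an unadjusted p under 0.05 in 0 of either. The shares of all genes tested were 1.25% higher and 1.47% lower there. In Tlr779 the T cell markers summed to 2.6 to 9.5 CPM without stimulus and 3.1 to 10.8 with CL097, ranges that overlap, and none of the 10 passed the filter on low values there. The 7 NK cell markers summed to 7.0 to 12.6 CPM without and 5.9 to 18.4 with CpG in Tlr9het, and to 4.2 to 9.3 and 7.8 to 11.1 in Tlr997. In Tlr779 they summed to 6.5 to 9.7 CPM without stimulus and 3.0 to 6.8 with CL097. Trat1 was at or under 3 counts in 5 of the 6 groups.

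Lag3 lies on chromosome 6 (GRCm38.p6 chr6:124904359-124912434, minus strand), between Cd4, 16.1 kb away, and Ptms (chr6:124913675-124917946), which encodes parathymosin and ends 1.2 kb upstream of Lag3 on the same strand. Ptms levels in Tlr9het were 5.38, 5.45 and 5.54 log2 CPM without stimulus and 6.13, 5.96 and 6.30 with CpG. In Tlr997 they were 5.19, 5.50 and 5.52 without stimulus and 4.82, 5.12 and 4.90 with CpG. Ptms rose in Tlr9het (0.67 ± 0.11, limma adjusted p = 1.2e-04) and with CL097 in Tlr779 (0.84 ± 0.18, limma adjusted p = 0.004). In Tlr997 its log2 fold change was -0.46 (limma adjusted p = 0.0025), under the size needed for a call. The CpG-treated genotypes differed by -1.18 (limma adjusted p = 8.0e-05) and the responses by -1.13 (limma adjusted p = 0.0033). Cd4 was not called in the Tlr7-/- arm and was too low to be tested in Tlr779. How counting handled reads that run from Ptms toward Lag3 is not given in the sources used here.

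**Figure D4:**
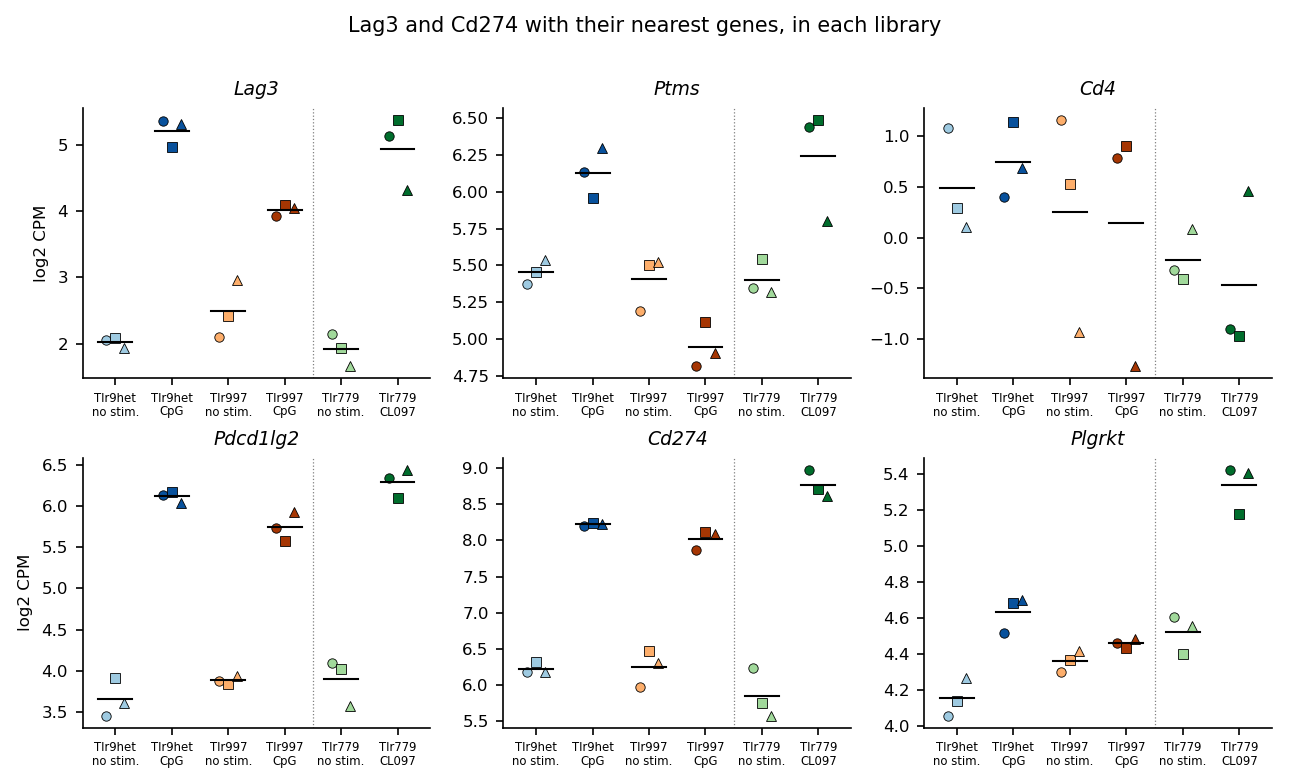
Levels in every library, in log2 CPM on the vertical axes, of Lag3 with its flanking genes Ptms and Cd4 (top row) and of Pdcd1lg2, Cd274 and Plgrkt on chromosome 19 (bottom row). The vertical ranges differ and do not start at 0, the horizontal axis gives the 6 groups, symbols mark replicate numbers and bars mark group means. Ptms lies at 4.82 to 5.12 in CpG-treated Tlr997 and at 5.96 to 6.30 in CpG-treated Tlr9het libraries.

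Both PD-1 ligand genes rose in all 3 genotypes. Cd274 was at 6.17, 6.32 and 6.18 log2 CPM in unstimulated Tlr9het and at 8.21, 8.25 and 8.23 with CpG. In Tlr997 it was at 5.97, 6.46 and 6.30, then 7.87, 8.11 and 8.09 with CpG. Tlr779 cells gave 6.23, 5.74 and 5.57, then 8.98, 8.71 and 8.62 with CL097. Unstimulated groups overlapped, and the stimulated groups stood in the order Tlr997, Tlr9het, Tlr779 without overlap. The rises were 4.01-fold (2.01 ± 0.10, limma adjusted p = 1.0e-09), 3.43-fold (1.78 ± 0.10, limma adjusted p = 4.4e-09) and 7.57-fold (2.92 ± 0.17, limma adjusted p = 7.2e-06). With CpG the genotypes differed by -0.21 (interval -0.43 to 0.02, limma adjusted p = 0.32).

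Pdcd1lg2, which lies 22.8 kb downstream of Cd274, encodes a ligand with a narrower range of cell types. Its values were 3.46, 3.91 and 3.62 log2 CPM in unstimulated Tlr9het and 6.14, 6.17 and 6.04 with CpG. Tlr997 gave 3.88, 3.85 and 3.94, then 5.73, 5.57 and 5.92 with CpG, and Tlr779 gave 4.10, 4.03 and 3.58, then 6.34, 6.10 and 6.44 with CL097. CpG-treated Tlr9het and CL097-treated Tlr779 overlapped, and CpG-treated Tlr997 stood below both. It rose 5.47-fold in Tlr9het (2.45 ± 0.12, limma adjusted p = 4.5e-10), 3.61-fold in Tlr997 (1.85 ± 0.12, limma adjusted p = 8.8e-09) and 5.23-fold with CL097 (2.39 ± 0.16, limma adjusted p = 1.1e-05). The response was 0.60 smaller in Tlr997 on the log2 scale (interval -0.96 to -0.24), which missed the threshold (limma adjusted p = 0.091) and passed it with replicate number as a block (limma adjusted p = 0.035). That block treats same-numbered libraries as pairs in both genotypes, and pairing was not clear for numbers 2 and 3 of Tlr997.

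Promoter sequences of this neighbouring pair are shown because the genes rose together. The RefSeq (GRCm38.p6) promoter table used here matched 6 of the 8 members, with 8 promoters in all, each from 250 bases before to 50 after a transcript start. Those of Il10 and Lag3 were not analysed here. Windows were searched on both strands for an NF-κB (κB) motif, AP-1 (TGANTCA), STAT (TTCNNNGAA) and IRF (GAAANNGAA), and no matches overlapped in the members' promoters. Of 32851 promoters of this length, 8.46%, 7.81%, 8.30% and 8.56% held a match. Cd274 held an IRF match at bases 175 to 183 and Pdcd1lg2 a κB match at bases 7 to 16, shown in capitals. The sequences are printed on the plus strand, and the IRF letters of Cd274 read on the opposite strand. A match is a string of letters and not a binding site.
Cd274, chr19:29367188-29367487, plus strand: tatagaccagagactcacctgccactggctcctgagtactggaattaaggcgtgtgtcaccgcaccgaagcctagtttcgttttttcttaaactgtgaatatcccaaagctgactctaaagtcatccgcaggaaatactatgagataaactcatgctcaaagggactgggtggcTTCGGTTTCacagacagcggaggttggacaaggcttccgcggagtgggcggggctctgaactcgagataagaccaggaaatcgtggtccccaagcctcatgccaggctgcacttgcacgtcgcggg
Pdcd1lg2, chr19:29410669-29410968, plus strand: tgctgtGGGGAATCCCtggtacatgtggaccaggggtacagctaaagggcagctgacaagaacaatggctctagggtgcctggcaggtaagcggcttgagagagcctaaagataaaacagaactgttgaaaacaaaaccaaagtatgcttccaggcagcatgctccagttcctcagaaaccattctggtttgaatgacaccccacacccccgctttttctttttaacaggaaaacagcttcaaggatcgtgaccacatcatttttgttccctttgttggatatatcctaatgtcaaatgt

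Plgrkt, which overlaps the Cd274 locus on the opposite strand, was called higher with CL097 (0.82, limma adjusted p = 3.0e-04) and not with CpG (0.48 in Tlr9het and 0.10 in Tlr997). A930007I19Rik, an RNA on the strand opposite to Pdcd1lg2, lies 30.7 kb beyond it in RefSeq but overlaps it in GENCODE. It was called higher with each agonist (2.42 in Tlr9het, 3.28 in Tlr997 and 1.90 in Tlr779). The Tlr9het call was lost without replicate 2 or 3 of its unstimulated or replicate 1 or 3 of its CpG libraries (limma adjusted p from 0.053 to 0.084). The kit marks strand, but the strand setting used in counting is not given in the sources used here, so the values of genes that overlap in either annotation are uncertain. For A930007I19Rik, replicate 3 of unstimulated Tlr997 was at -4.63, under the level of 3 counts, and the Tlr997 value ran from 1.95 to 4.00 when 1 library was left out.

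Ctla4 had the lowest level of the members in every group, as CPM per kb of exon. It encodes a T cell inhibitory receptor, made in quantity by regulatory T cells. Tlr9het libraries gave -0.17, 1.04 and -0.11 log2 CPM without stimulus and 3.28, 3.64 and 2.86 with CpG. In Tlr997 the values were 0.80, 1.22 and 2.49, then 2.70, 3.09 and 2.84, and in Tlr779 they were 1.23, 0.73 and 0.48, then 2.19, 2.34 and 2.14. No stimulated library overlapped its own unstimulated group, but unstimulated Tlr997 overlapped CL097-treated Tlr779. Ctla4 rose 8.05-fold in Tlr9het (3.01 ± 0.42, limma adjusted p = 2.2e-05) and 2.66-fold with CL097 (1.41 ± 0.26, limma adjusted p = 0.0019). In Tlr997 it rose 2.59-fold (1.38 ± 0.42, limma adjusted p = 0.01), and by 1.87 on the log2 scale without replicate 3 of the unstimulated group, which had the highest Ctla4 value of the unstimulated ones.

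Between genotypes, Ctla4 differed by 1.25 without stimulus (interval 0.34 to 2.16, limma adjusted p = 0.36), a difference of 0.75 without replicate 3 of Tlr997. The responses differed by -1.63 (interval -2.92 to -0.35, limma adjusted p = 0.19). Foxp3, a marker of regulatory T cells, was among the T cell markers called higher with CpG in Tlr9het, with Cd8a and Cd8b1, and their part in the Ctla4 values was not tested. The annotation also places the pseudogene Rpl18-ps1 inside Ctla4 on the same strand. On either side of Ctla4 lie the T cell costimulatory genes Cd28, 135.7 kb away, and Icos, 44.9 kb away. Cd28 had log2 fold changes of 0.08, 0.11 and -0.09, Icos had 1.22 and 0.28 with CpG and was too low to be tested in Tlr779, and neither was called.

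Of 21 binding partners and signal proteins of these checkpoint receptors tested in the Tlr7-/- arm, 3 were called higher and 9 lower in Tlr9het, and 1 and 9 in Tlr997. Of 20 in Tlr779, 1 was called higher and 7 lower. Of all genes tested, 29.7%, 29.6% and 22.7% were called higher in Tlr9het, Tlr997 and Tlr779, and 28.2%, 26.0% and 23.6% were called lower. The medians of the list were -0.44, -0.13 and -0.31, beside 0.04, 0.07 and -0.02 over all genes, and the list was not tested against them. Cd80, a ligand of both CD28 and CTLA-4, rose by 1.52, 1.98 and 1.23 on the log2 scale. H2-Aa, an MHC class II chain and so part of the ligand of LAG-3, fell by 1.85, 1.65 and 0.55. Ptpn6, which encodes the phosphatase SHP-1, fell by 1.49, 1.19 and 1.22. Cd86, the other ligand of CTLA-4, fell by 0.59 and 0.54 with CpG and was not called with CL097 (0.19). The Tlr997 call of Cd86 was lost without replicate 2 or 3 of the unstimulated or replicate 1 of the CpG libraries, where the log2 fold change was -0.50 to -0.45. With CL097 the ICOS ligand gene Icosl fell by 1.28 and Cmtm6, whose product stabilizes PD-L1 at the cell surface, by 0.51. The call of Cmtm6 was lost without replicate 3 of the unstimulated or replicate 1 or 2 of the CL097 libraries (-0.48 to -0.47). Pdcd1, which encodes PD-1, was called higher in Tlr9het at the edge of the threshold (1.23, limma adjusted p = 0.048), a call that was lost without replicate 1 or 2 of unstimulated Tlr9het, replicate 2 or 3 of CpG-treated Tlr9het or replicate 1 of CpG-treated Tlr997 (limma adjusted p from 0.057 to 0.2). Its groups overlapped in all 3 genotypes, and its log2 fold changes elsewhere were 0.40 and 0.54. Between CpG-treated genotypes, 1.25% of all genes tested were called higher and 1.47% lower. Of these partners 0 were called by limma there, and 1 had an unadjusted p under 0.05. That gene, named after its values were seen, was Lrba, whose product helps return CTLA-4 to the cell surface (-0.39, limma adjusted p = 0.04, under the size needed for a call).

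Tgfb1 was the member that fell. It was at 8.62, 8.56 and 8.85 log2 CPM in unstimulated Tlr9het and at 7.13, 7.06 and 7.12 with CpG. Tlr997 gave 8.71, 8.59 and 8.66, then 7.03, 6.92 and 6.88, and Tlr779 gave 8.43, 8.72 and 8.58, then 7.60, 7.49 and 7.35 with CL097. Every stimulated library lay below every unstimulated one, and the stimulated groups stood in the order Tlr997, Tlr9het, Tlr779 without overlap. The log2 fold changes were -1.58 ± 0.07 (limma adjusted p = 3.0e-10), -1.71 ± 0.07 (limma adjusted p = 1.8e-10) and -1.10 ± 0.10 (limma adjusted p = 3.5e-05), so that 0.336, 0.306 and 0.468 of the unstimulated level remained. With CpG the genotypes differed by -0.16 (limma adjusted p = 0.25). Its neighbours B9d2, 439 bases away, and Ccdc97 also fell with CpG, B9d2 by 0.86 and 0.88 and Ccdc97 by 0.56 and 0.63. The promoter is shown because Tgfb1 fell. It held a κB match at bases 111 to 120, in capitals, and Pdcd1lg2, which rose, also held a κB match.
Tgfb1, chr7:25686752-25687051, plus strand: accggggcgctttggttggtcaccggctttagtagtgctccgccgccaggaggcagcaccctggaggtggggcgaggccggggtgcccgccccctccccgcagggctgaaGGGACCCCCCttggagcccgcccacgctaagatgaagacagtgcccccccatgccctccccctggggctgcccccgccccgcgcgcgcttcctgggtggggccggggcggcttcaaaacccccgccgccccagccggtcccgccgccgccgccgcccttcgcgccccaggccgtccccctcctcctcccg

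Of 20 other TGF-β genes tested, 2 were called higher and 10 lower in Tlr9het and in Tlr997, and of 19 in Tlr779, 3 and 7. The medians were -0.65, -0.52 and -0.22. Among all genes tested, 29.7%, 29.6% and 22.7% were called higher and 28.2%, 26.0% and 23.6% lower, and this list too was not tested against these shares. Tgfb3, a second ligand, fell by 4.10, 4.51 and 3.06 on the log2 scale, from 3.62 to 5.09 log2 CPM without stimulus to -0.78 to 1.34 with an agonist. Eng, the co-receptor endoglin, fell by 3.76, 3.69 and 1.96. The genes that rose include some that handle latent TGF-β. Furin, a protease that cleaves the TGF-β precursor, rose by 1.31, 0.97 and 1.09. Lrrc32, which encodes GARP, the surface anchor of latent TGF-β, rose by 2.12, 3.09 and 2.31 from values near 0 log2 CPM. Smad7, an inhibitor of the pathway, was the list gene called between genotypes, 0.72 lower in Tlr997 with CpG (limma adjusted p = 0.0038). In that comparison 1.25% of all genes tested were called higher and 1.47% lower, and the list was not tested against these shares.

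Havcr1 ran against the other members, with higher CpG-treated levels in Tlr997 than in Tlr9het. It was at 3.42, 3.20 and 3.48 log2 CPM in unstimulated Tlr9het and at 3.68, 3.80 and 4.01 with CpG. In Tlr997 the values were 3.26, 3.31 and 3.45, then 4.48, 4.54 and 4.55. In Tlr779 they were 3.12, 3.67 and 2.98, then 3.58, 4.06 and 3.42 with CL097. CpG-treated Tlr997 stood above all other groups without overlap, while the Tlr779 groups overlapped. Havcr1 rose 2.28-fold in Tlr997 (1.19 ± 0.12, limma adjusted p = 1.1e-06). In Tlr9het its log2 fold change was 0.47 ± 0.12 (limma adjusted p = 0.0036), just under the size needed for a call, and in Tlr779 it was 0.44 (interval -0.11 to 0.98, limma adjusted p = 0.14).

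With CpG, Havcr1 was 1.62-fold higher in Tlr997 than in Tlr9het (0.69 ± 0.12, interval 0.43 to 0.96, limma adjusted p = 0.0049), and all 3 Tlr997 libraries lay above all 3 Tlr9het libraries. Unstimulated cells differed by -0.03 (limma adjusted p = 0.96). The difference of the responses was 0.72 ± 0.17 (interval 0.35 to 1.09), at the border of the threshold. Its limma adjusted p was 0.051, and became 0.034 with replicate number as a block and 0.028 without replicate 3 of unstimulated Tlr997. The pairing by number that the block takes for granted was not clear for numbers 2 and 3 of Tlr997. The related genes on either side are Timd2, 32.7 kb away, and Timd4, 31.2 kb away. Timd2 rose with CpG in both genotypes (1.64 and 1.94) and was not called with CL097 (0.36), and Timd4 was not called in any comparison.

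Cd200 rose in all 3 genotypes and was not called between CpG-treated Tlr997 and Tlr9het. Its values were 5.33, 5.14 and 5.36 log2 CPM in unstimulated Tlr9het and 6.75, 6.85 and 6.74 with CpG. Tlr997 gave 5.33, 5.15 and 4.96, then 6.35, 6.83 and 6.60, and Tlr779 gave 5.36, 5.35 and 5.74, then 6.47, 6.50 and 5.94. CpG-treated Tlr997 overlapped both other stimulated groups, CpG-treated Tlr9het stood above CL097-treated Tlr779, and every stimulated library lay above the unstimulated ones. The rises were 2.84-fold (1.51 ± 0.12, limma adjusted p = 7.2e-08), 2.72-fold (1.44 ± 0.12, limma adjusted p = 1.3e-07) and 1.76-fold (0.82 ± 0.17, limma adjusted p = 0.0035). Between CpG-treated genotypes the difference was -0.19 (interval -0.45 to 0.06, limma adjusted p = 0.43). Its neighbour Btla, 129.2 kb away, encodes another inhibitory receptor of lymphocytes and rose by 1.15, 0.97 and 0.76. On the other side, Gm609 was at -5.05 log2 CPM in every library.

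Other genes used to describe regulatory B cells went both ways. Of 17 tested, 6 were called higher and 4 lower in Tlr9het and 7 and 4 in Tlr997, and of 16 in Tlr779, 6 and 5, with medians of 0.49, -0.06 and 0.28. Among all genes tested, 29.7%, 29.6% and 22.7% were called higher and 28.2%, 26.0% and 23.6% lower. The list was not tested against these shares. Ebi3, a subunit of IL-35 and IL-27, rose 21.2-fold, 12.8-fold and 10.7-fold. Its level in Tlr9het was 2.23, 1.91 and 2.40 log2 CPM without stimulus and 6.67, 6.56 and 6.53 with CpG. Surface proteins used to sort such cells differed in direction. Cd1d1, which presents lipids to NKT cells, fell by 2.29, 2.26 and 1.50, and Cr2, which encodes the complement receptor CD21, fell by 1.89, 1.06 and 1.71. Cd24a rose with CpG (1.34 and 0.67) and was not called with CL097 (0.25). Named after their values were seen, Cd5 fell in Tlr9het and with CL097 (-1.56 and -1.33, with -0.64 in Tlr997) and Cd9 was not called (0.13, -0.32 and 0.32). Entpd1, which encodes the ectonucleotidase CD39, fell by 1.83, 2.55 and 1.06. Tigit, an inhibitory receptor of T and NK cells, rose by 2.57, 2.51 and 1.80. Gzmb, which encodes granzyme B, was called higher in Tlr997 (3.06) and with CL097 (2.07) and not in Tlr9het (1.67), and replicate 3 of unstimulated Tlr997 was at -4.65, under the level of 3 counts. Without that library its Tlr997 value was 1.16 and not called (limma adjusted p = 0.062), and the call was also lost without replicate 2 or 3 of CpG-treated Tlr997. Between CpG-treated genotypes, 1.25% of all genes tested were called higher and 1.47% lower, and the list was not tested against these shares. There, Cr2 was higher in Tlr997 (0.81, limma adjusted p = 0.025), and Cd24a (-0.59) and the IL-35 and IL-12 subunit gene Il12a (-0.53) were lower. These 3 calls were lost in 4, 8 and 4 of 12 fits that left out 1 library.

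**Figure D5:**
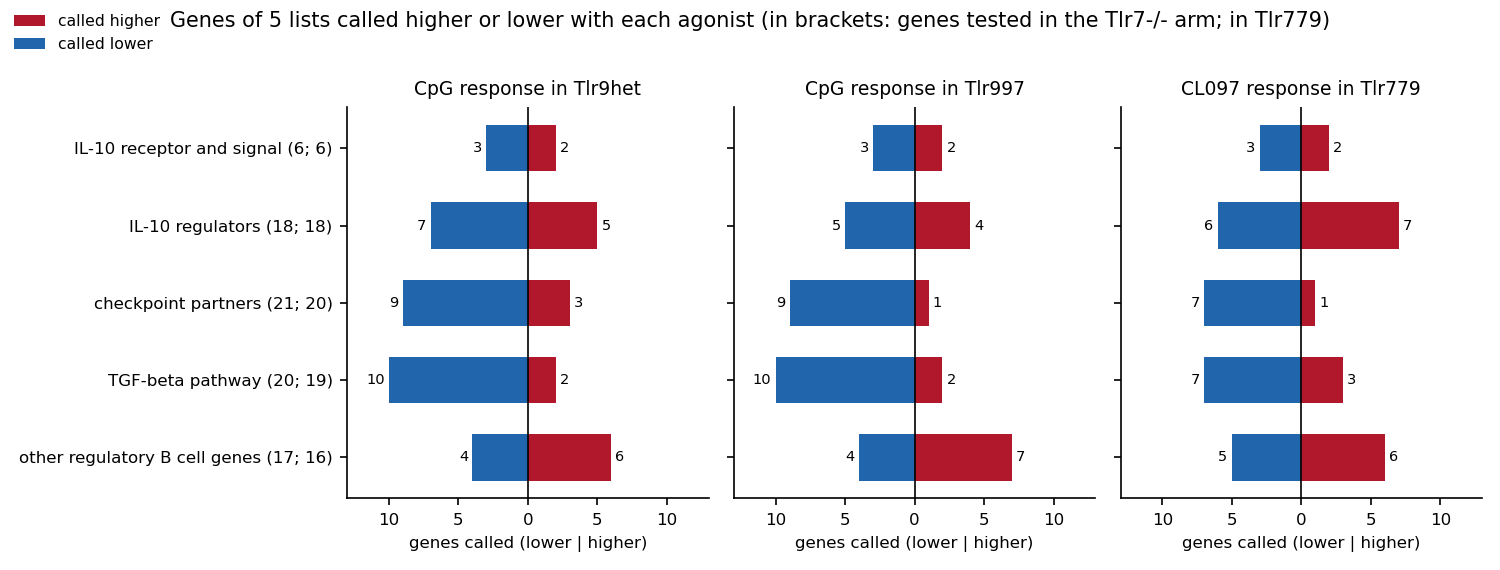
Number of genes called higher (right of 0) or lower (left of 0) with each agonist in 5 lists of genes related to the 8 members, with 1 panel per genotype. Numbers in brackets are the genes tested in the Tlr7-/- arm and in Tlr779. In Tlr9het, every list except the other regulatory B cell genes holds more lower than higher calls. The checkpoint partners and the TGF-beta pathway hold 9 and 10 lower calls there. Of all genes tested, 29.7% were called higher and 28.2% lower in Tlr9het, and the lists were not tested against these shares.

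Per length of exon, the order of the members changed with stimulation. As CPM per kb of exon, unstimulated Tlr9het cells held Tgfb1 at 81.2, Cd274 at 20.6, Cd200 at 11.7, Pdcd1lg2 at 6.46, Havcr1 at 4.46, Lag3 at 1.92, Il10 at 1.67 and Ctla4 at 0.51. With CpG, Cd274 stood first at 82.8, followed by Il10 at 37.5, Pdcd1lg2 at 35.4, Cd200 at 33.2 and Tgfb1 at 27.2. In CpG-treated Tlr997, Cd274 was at 71.8, Il10 at 28.1, Tgfb1 at 24.4, Havcr1 at 9.96 and Lag3 at 7.69, so Havcr1 stood above Lag3 there and below it in CpG-treated Tlr9het (6.15 against 17.5). With CL097, Cd274 was at 120.4, Il10 at 49.7 and Lag3 at 14.6. Il10 thus moved from the lowest levels to those of the PD-L2 and CD200 genes within the 4 h of culture, and differences between close neighbours in these orders were not tested.

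The genes whose levels followed Il10 most closely over the 12 libraries of the Tlr7-/- arm, among 9377 genes, were the zinc transporter gene Slc39a14 (Pearson r = 0.997), Snrnp40 (0.995) and Xpo5 (0.995). For Lag3 in the same libraries they were Slc35c2 (0.989), Ndel1 (0.986) and D16Ertd472e (0.984). Over the 6 Tlr779 libraries they were Rmdn3 (0.999), Nup35 (0.998) and Zfp143 (0.998) for Il10, and Nup155, Mto1 and Xrcc5 (0.999 each) for Lag3. These libraries fall into stimulated and unstimulated groups, so each r mostly follows that split, and it is given as a description across libraries that share mice and normalization.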

How the data were processed

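Per the labels and the study's methods, RNA of bead-purified splenic B cells was made into stranded mRNA libraries. The authors processed reads with FastQC 0.11.7, Trim Galore 0.6.5, STAR 2.6.1a (mm10) and featureCounts (Subread 2.0.1), then applied quantile normalization and limma's voom, and deposited log2 CPM without counts. Voom adds 0.5 counts, which understates folds of low genes. The depth of each library is unknown, so no counting interval was made. The level of 3 counts, -2.24, follows from voom's formula and the most frequent low value, -5.052. In the Tlr7-/- arm (12 libraries), 6614 genes stayed below -4 throughout. Of these, 6306 had 1 value per replicate number and for 822 it differed between numbers. Il19 in unstimulated Tlr779 libraries held the same values as in unstimulated Tlr9het, -5.21, -4.84 and -5.11. Removal of an offset per number before deposit would give this pattern, but the sources used here do not state such a step. If it was made, the limma p-values given here do not account for it.

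limma 3.58.1 in R 4.3.3, with its variance trend switched on, was fitted to the deposited values over all genes with more than 0 log2 CPM in at least 3 fitted libraries (11494 genes in the 12 libraries of the Tlr7-/- arm, 11082 in the 6 Tlr779 libraries). Tests were two-sided and adjusted by Benjamini-Hochberg over all of them. Scripts were tested on simulated data. Members and gene lists were chosen with earlier results of these data known. All 8 members are named with every library value. Of each list, up to 2 called genes at either end of the log2 fold changes are named per comparison, with every gene called between genotypes, the nearest listed genes on each side of a member, and the 3 genes with the highest Pearson r to Il10 and to Lag3. All 102 list genes and 61 of 62 markers matched, and 1 further marker is not reported here. Values of list genes in the comparisons for which this rule did not pick them are given beside them.

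Nothing states that a replicate number marks a mouse or that libraries of a group came from separate cultures, so p-values measure the spread between these samples. Deviations from the group means were correlated over 11494 genes between same-numbered libraries without and with stimulus. The values were 0.513, 0.287 and 0.509 in Tlr9het and 0.205, 0.421 and 0.285 in Tlr779. In Tlr997 they were 0.373, 0.083 and 0.025. There, number 2 without and number 3 with CpG gave 0.168, and number 3 without and number 2 with CpG gave 0.126. The main fits compared group means and did not use the numbers as pairs. Only the fits with replicate number as a block used them. Exon length came from GENCODE M21, coordinates and promoters from RefSeq GRCm38.p6. Alternatives were other filters, thresholds, weights and scalings, the replicate block, and leaving out each library.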

Additional observations from a re-analysis of the deposited data

Results flagged for a closer look

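For 5 of the named genes the CpG response in Tlr997 differed from that in Tlr9het, and this is what marked them for a closer look. Among all genes tested, 0.687% were called higher and 0.853% lower for this difference. List genes called for it were named for that reason, so nothing is read from the count of 5. Lag3 was the member among them, with a response smaller by 1.66 on the log2 scale (difference -1.66), given without a test because it was selected on this value. Same-numbered libraries differed by 3.31, 2.88 and 3.38 in Tlr9het and by 1.83, 1.68 and 1.08 in Tlr997. Its upstream neighbour Ptms differed by -1.13 (limma adjusted p = 0.0033), and its same-numbered differences were 0.76, 0.50 and 0.76 in Tlr9het and -0.38, -0.39 and -0.62 in Tlr997. Batf differed by -0.82 (limma adjusted p = 0.019), Il10ra by -0.80 (limma adjusted p = 9.7e-04) and Zfp36 by -0.55 (limma adjusted p = 0.038). The calls of Batf and Zfp36 were lost in 1 and 9 of 12 fits that left out 1 library. Groups of 3 libraries were too small for a check of single outlying values.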

How the results depend on the processing

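Of 944 values of members under alternatives, 927 kept their direction and their side of the threshold, 5 lost a call, 12 gained one and 0 reversed. Of 2730 values of the other named genes, 2622 were kept, 99 lost, 9 gained and 0 reversed. Member counts stayed within 1.5 times in 109 of 118 cases. Counting Lag3, which was selected on these values, 2 members met the threshold between genotypes with CpG, and 1 with a fold change threshold of 1, which Havcr1 does not reach. For the difference of CpG responses, where Lag3 alone met it, the count was 0 without the filter on low values and 2 with a stricter filter, with array quality weights, on log2(CPM + 1) or with median centring, Havcr1 being the gene gained in each. It ran from 1 to 2 over the fits without 1 library, with Pdcd1lg2 gained without replicate 2 of unstimulated Tlr9het (-0.72) and Havcr1 without replicate 3 of unstimulated Tlr997 (0.78).

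With replicate number as a block, that count was 3 (Lag3, Havcr1 and Pdcd1lg2), although pairing was not clear for numbers 2 and 3 of Tlr997. The block changed no other call of a member. It moved the number of genes called for this difference from 177 to 328. Without the filter that number was 78, without the variance trend 98, with a fold change threshold of 1 it was 46, and with array weights 377. It was 87 without replicate 1 of unstimulated Tlr9het, 101, 101 and 90 without replicates 1, 2 and 3 of CpG-treated Tlr9het, and 295 without replicate 3 of unstimulated Tlr997. For Tlr997 against Tlr9het with CpG, 313 genes were called, 187 without the filter, 187 without replicate 1 of CpG-treated Tlr9het, 74 at a threshold of 1 and 485 with weights. Thresholds of 1 left 4058 of 6650 genes called with CpG in Tlr9het, 3767 of 6386 in Tlr997, and 2580 of 5134 with CL097. Without stimulus, 2 genes were called, 0 without the filter and 0 with only the groups compared.

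The call of Ctla4 with CpG in Tlr997 was lost without the filter (limma adjusted p = 0.054), as was that of Cd200 with CL097 (0.051). Havcr1 was called in Tlr9het without replicate 3 of its unstimulated (0.52) or replicate 1 of its CpG libraries (0.54), and with CL097 without replicate 2 of unstimulated Tlr779 (0.64). Other causes of these changes were not tested. The unknown depth limits what can be said of Ctla4, the lowest member.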
